A study of Bos taurus with 40 samples.

Results

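Among the cDNA probes of a bovine array, 102 of 10184 were taken as the probes that varied from conceptus to conceptus together with FN1 and APLP2, whose transcripts the study located by in situ hybridisation in the endoderm cells of the Day 18 extra-embryonic tissues. The probes AW465534 (FN1) and BF046406 (APLP2) defined the set. The other 100 were those whose level, after subtraction of the mean of each group, had the highest Pearson correlation (r) over the 40 arrays with the mean of the defining pair. As these values chose the probes, each r between a probe and this mean is given as a description with no test. The group means were subtracted before the choice of these 100, but the defining pair had been picked by the study from array differences that included these samples, so the comparison between groups is not independent evidence for the pair or for the probes that follow it.

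Each array measured the extra-embryonic tissue of 1 Day 18 bovine conceptus as bulk tissue, with trophoblast, endoderm and any mesoderm cells together. Fewer cells of a type and less RNA per cell therefore cannot be told apart. The 4 groups held 10 conceptuses each. By length the study classed them from early tubular to filamentous, in shares that differed between groups, with early tubular ones only in SCNT Med and SCNT Low. The class of each conceptus was not given with the arrays, so variation with stage could not be looked at. IVP conceptuses came from in vitro production, and the SCNT groups came from somatic cell nuclear transfer of adult ear-skin fibroblasts. SCNT High came from cow 5538, SCNT Med from cow 7711 and SCNT Low from cow 0029, so each SCNT group stands for 1 cell line, and line and group cannot be told apart. High, Med and Low rank the donor lines by the development of their clones to term. SCNT conceptuses were all female whereas IVP conceptuses were of both sexes, and the sex was not given with the arrays. Conceptuses were collected after transfer of several blastocysts to a recipient, so some may have come from the same cow. The recipient was not given with the arrays. The fits treated the 10 arrays of a group as independent, and the intervals and p-values make no allowance for shared recipients. The level of a probe is its log2 spot signal minus the mean of that array over the cDNA probes, so that 0 is the array mean.

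FN1 encodes fibronectin, a secreted glycoprotein of the extracellular matrix that cells bind through integrins. APLP2 encodes a transmembrane protein of the amyloid precursor family. In ruminants the extra-embryonic endoderm lines the inner face of the trophoblast as the conceptus elongates before implantation, and matrix laid down between both layers is part of this arrangement. PLIN2, which encodes a protein coating lipid droplets, was located by the study in trophoblast cells and serves here as the comparison from another layer.

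A gene name could be tied to 16 probes of the array, those with QPCR primers in the study. Of the lists of marker and pathway genes, 2 of 40 endoderm genes (FN1 and APLP2) and 1 of 34 trophoblast genes (PLIN2) had such a probe, and none of 14 mesoderm and 6 blood genes did. Of 37 genes of the fibronectin matrix and its receptors only FN1 was tied to a probe, and of 14 genes of the amyloid family and its processing only APLP2. The endoderm label of the set therefore rests on the located transcripts of the defining pair, and no further endoderm gene could be checked. The QPCR primers that the study listed for the 3 located genes follow, written 5′ to 3′. They were not aligned to any transcript here.
FN1 forward: gcgattgtctgattctggctt
FN1 reverse: tctccctgacgatcccactt
APLP2 forward: agcttttgcgcttcagcatc
APLP2 reverse: agctacggtgagtcaatggca
PLIN2 forward: ggtgaccgagtctgagagtgc
PLIN2 reverse: gcaggtgtcagctcaagagga

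The median spot signal of an array was 22.9 to 162 brightness units, and the median signal over local background was 4.86 to 8.99. Between 75.9% and 97.3% of the cDNA spots of an array were brighter than its water spot. Among the 102 probes, 55 (53.9%) were brighter than water on every array, against 55.2% of all cDNA probes, and 3 were so on fewer than 20 arrays. FN1 passed this limit on 40 arrays and APLP2 on 39. The dates in the file headers fell into 3 sessions of 20, 14 and 6 arrays, and the third was made up of 4 arrays of SCNT High and 2 of SCNT Low. The quantification software marked 32.8% of the member spots as poor on the arrays of the third session, and 26.4% of all cDNA spots there.

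One SCNT High array, BC245, had the lowest FN1 and APLP2 levels of all 40 arrays. All 102 probes were below their group mean on it, with a median deviation of -1.41 (log2), whereas the median deviation of all cDNA probes on the same array was 0.011. For 77 probes (75.5%) it held the lowest level of all 40 arrays, against 6.61% of all cDNA probes. BC245 contributed 33.9% of the summed squared deviations of the FN1 and APLP2 mean, and BC158, the SCNT Med array with the highest FN1 level, contributed 11.98%. As the probes were chosen to follow this mean, their low levels on BC245 follow largely from the choice and are a description. BC245 belonged to session 2, and in sessions 1 and 2 together the software marked only 1 member spot as poor, so the absence of a mark on its FN1 and APLP2 spots says nothing about them.

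In IVP conceptuses the FN1 level was between 1.24 (BF169) and 2.63 (BF178), with a median of 1.94. In SCNT High it was between -1.29 (BC245) and 2.38 (BC252), with a median of 1.71. BC245 was alone below 0, and the next lowest array was at 0.42. In SCNT Med it was between 1.14 (BC192) and 4.54 (BC158), with a median of 2.79. In SCNT Low it was between 0.81 (BC250) and 1.88 (BC271), with a median of 1.41. The highest FN1 levels were thus found in SCNT Med, where 8 of 10 arrays were above every SCNT Low array, and the SCNT Low arrays all lay below the IVP mean. The mean levels were 2.69 ± 1.03 (SD, n = 10) in SCNT Med, 2.01 ± 0.49 in IVP, 1.45 ± 1.11 in SCNT High and 1.38 ± 0.39 in SCNT Low. Without BC245, SCNT High had 1.75 ± 0.59 (SD, n = 9). All 4 groups overlapped.

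APLP2 had its highest mean in SCNT Med and its lowest in SCNT Low, as FN1 did. Its level in SCNT Med was between -0.30 (BC183) and 1.22 (BC158), with a median of 0.48. In SCNT Low it was between -0.78 (BC256) and 0.16 (BC271), with a median of -0.29. In IVP it was between -0.57 (BF176) and 0.56 (BF178), with a median of 0.01, and in SCNT High between -1.58 (BC245) and 0.87 (BC275), with a median of 0.29. The means were 0.48 ± 0.55 (SD, n = 10) in SCNT Med, 0.04 ± 0.71 in SCNT High, 0.02 ± 0.29 in IVP and -0.29 ± 0.27 in SCNT Low. For SCNT High the mean was 0.22 ± 0.45 (SD, n = 9) without BC245. The mean over all 102 probes showed less difference between groups, with 1.07 ± 0.33 in SCNT Med, 1.02 ± 0.15 in IVP, 0.85 ± 0.64 in SCNT High and 0.82 ± 0.25 in SCNT Low (SD, n = 10). Without BC245, SCNT High had a mean of 1.04 ± 0.27 (SD, n = 9).

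**Figure D1:**
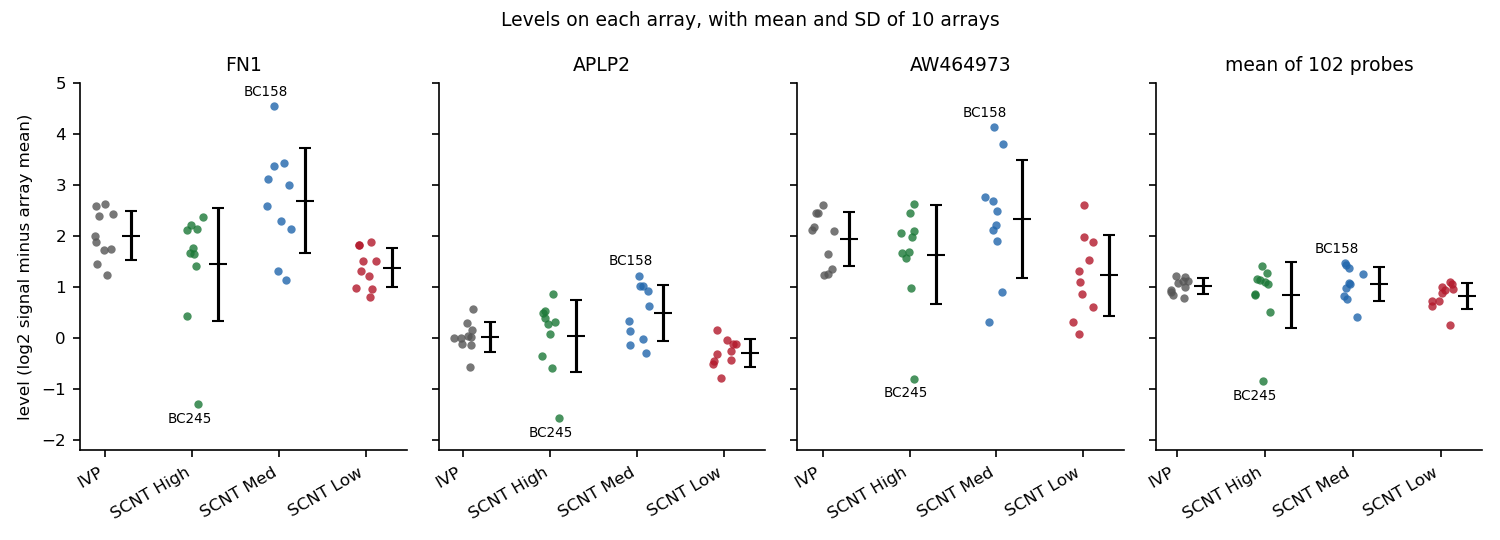
Level (log2 signal minus array mean) of FN1, APLP2, probe AW464973 and the mean of the 102 probes on each array, by group. Points are arrays and bars give the mean and SD of 10 arrays. BC245 is the lowest SCNT High array in every panel, at -1.29 for FN1, and BC158 is the highest SCNT Med array, at 4.54.

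Within groups, FN1 and APLP2 varied together over the 40 arrays (r = 0.80), and r was 0.70 without BC245 and 0.66 without BC245 and BC158. The rule did not use this r, but the pair was picked with earlier results of these data known. The relation was unequal between groups, with r = 0.92 in SCNT High (0.76 without BC245), 0.81 in SCNT Med, 0.48 in IVP and 0.39 in SCNT Low, and the differences between these values were not tested. Within the 3 sessions r was 0.77, 0.82 and 0.97, over 20, 14 and 6 arrays. FN1 and APLP2 of a conceptus were read on the same membrane, and centring removes only the mean signal of that membrane. FN1 had a within-group SD of 0.82, above that of 91.3% of the cDNA probes, and APLP2 had 0.49 against a median of 0.48 over all cDNA probes.

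**Figure D2:**
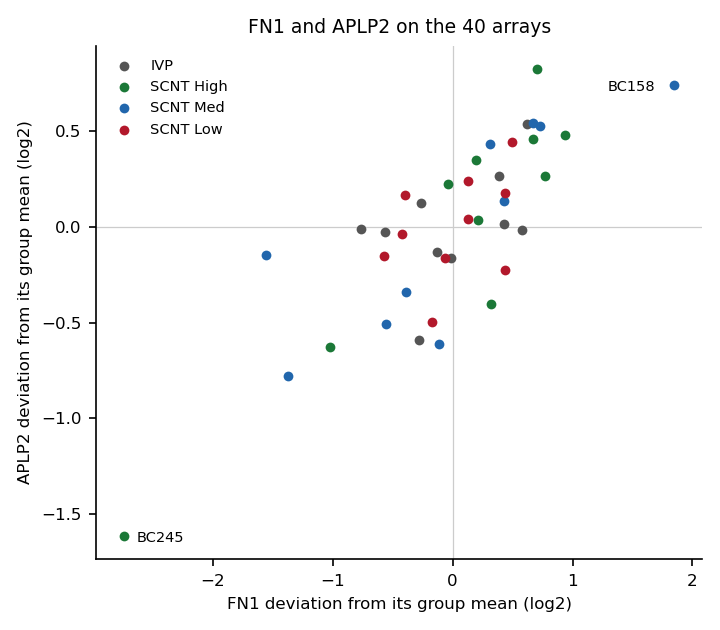
Deviation of FN1 (horizontal axis, log2) and of APLP2 (vertical axis, log2) from their group means, with 1 point for each of the 40 arrays, coloured by group. The points run from BC245 at the lower left to BC158 at the upper right, with r = 0.80 over all arrays and 0.70 without BC245.

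The probe that varied most like the pair was AW464973 (r = 0.85), followed by BF039701 (0.82), BF040079 (0.71), BF041874 (0.70), BF046631 (0.68), AW465560 (0.68), CN434617 (0.67), CN432728 (0.65), BF043833 (0.65) and CN432794 (0.64). These probes have no gene name here. The median r of the 100 probes was 0.55, and 3 of them exceeded 0.7. Over all cDNA probes r had a median of 0.00, with 1% below -0.49 and 1% above 0.51. At the limit, BF044816 (0.512), BF039280 (0.511) and CV794668 (0.510) were just inside, and BF044163 (0.509), BM364585 (0.507) and BF043890 (0.507) just outside.

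AW464973 followed FN1 closely within groups, with r = 0.85 with FN1 alone and 0.75 with APLP2 alone, and 0.80 and 0.66 without BC245. Its r with FN1 was 0.92 in SCNT High (0.66 without BC245), 0.89 in SCNT Med, 0.87 in IVP and 0.66 in SCNT Low. Within the 3 sessions it was 0.88, 0.84 and 0.73. Its level was between 1.23 and 2.61 in IVP, between -0.80 (BC245) and 2.62 in SCNT High, between 0.31 and 4.13 (BC158) in SCNT Med and between 0.07 and 2.60 in SCNT Low. BC245 and BC158 were thus its lowest and highest arrays, as for FN1.

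BC245 and BC158 were also the lowest and the highest array for BF039701, whose level was between -0.63 (BC245) and 2.93 in SCNT High and between 0.57 and 3.56 (BC158) in SCNT Med. Its IVP levels lay between 1.84 and 3.50 and its SCNT Low levels between 1.39 and 2.71. BF041874 was between -1.48 (BC245) and 1.81 in SCNT High, and between -0.83 and 3.39 (BC158) in SCNT Med, whereas its SCNT Low levels stayed between -0.20 and 0.87. BF040079 varied less, with levels between -1.70 (BC245) and 0.04 in SCNT High and between -1.31 and -0.28 in SCNT Med.

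Most of the 100 probes depended on BC245 for their place in the set. Without this array, 36 of the 100 were chosen again, the median r of the 100 was 0.38, and the lowest was 0.20. Leaving out any other single array kept 66 (without BC158) to 100 of them. The 4 probes with the highest r were chosen again under every alternative run, and without BC245 they had r = 0.80 (AW464973), 0.73 (BF039701), 0.64 (BF040079) and 0.65 (BF041874). In SCNT High the median r of the 100 probes was 0.84, and 0.52 without BC245. It was 0.43 in SCNT Med, 0.31 in SCNT Low and 0.30 in IVP. The median r between pairs of members was 0.41, and 0.24 without BC245.

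The spots of the chosen probes lay close together on the membrane. The membrane has 48 rows and 24 columns of blocks, with 9 spots to a block. Block columns 1 to 8 held 64 of the 102 spots (62.7%), against 33.3% of all cDNA spots, and block column 6, which holds APLP2 at block row 32, held 24 (23.5% against 4.15%). In the sector of block rows 17 to 32 and columns 1 to 8, which held 35 member spots, the median deviation of all cDNA spots on BC245 was -0.28 (log2), and that of their local background was -0.24. In the sector below, of block rows 33 to 48, which held 21, the median deviation on BC158 was 0.47. FN1 lies at block row 14 and column 3, in the sector above. The median deviation of that sector on BC245 was -0.04, and FN1 itself deviated by -2.74. Without BC245, 88 of the 100 probes then chosen lay in block columns 1 to 8. The other spots in the same block as a chosen probe, none of them members, had a median r of 0.26 with the FN1 and APLP2 mean, against 0.00 for the neighbours of all cDNA probes.

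The local background varied with the pair near these spots as well. Its r with the FN1 and APLP2 mean had a median of 0.34 at the spots of the 100 probes, against 0.02 at all cDNA spots. At the FN1 spot the local background had r = 0.78 with FN1, and at the APLP2 spot r = 0.64 with APLP2, and the part of the local background in the signal of the pair was not tested. How the choice changed once place on the membrane was taken into account was measured with an adjustment. When the median deviation of the cDNA spots within 2 blocks each way was subtracted on each array, 44 of the 100 probes were chosen again and 41 of the 100 then chosen lay in block columns 1 to 8. FN1 and APLP2 had r = 0.72 after the adjustment and 0.60 when BC245 was also left out. BC245 kept the lowest adjusted FN1 and APLP2 levels of all arrays, at -1.06 and -1.33. What set BC245 apart was not tested. The adjustment raised r for AW464973 to 0.92 and for BF041874 to 0.77, and gave 0.76 for BF039701 and 0.55 for BF040079. The neighbours of AW464973 and BF039701 had r = -0.06 and -0.07 with the FN1 and APLP2 mean, whereas those of BF040079 and BF041874 had 0.38 and 0.29. The 8 neighbours of FN1 had r = 0.24 with FN1, and the 6 neighbours of APLP2 that were not members had r = 0.63 with APLP2.

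**Figure D3:**
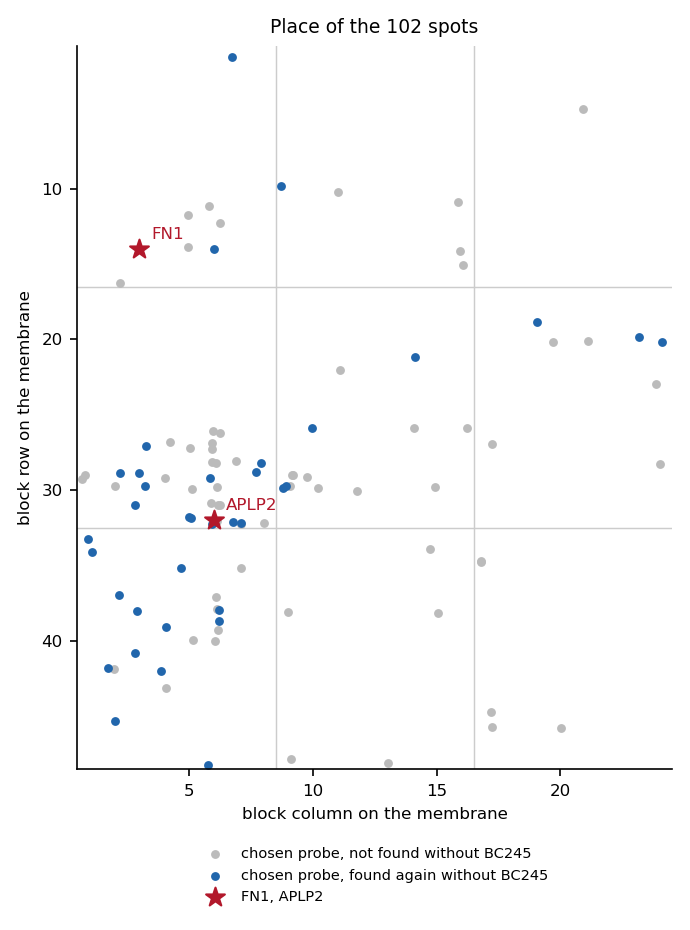
Place of the 102 spots by block column (horizontal axis) and block row (vertical axis) of the membrane, with points moved slightly within their block so that none hides another. Stars mark FN1 and APLP2, blue points the 36 probes chosen again without BC245, and grey points the other 64. Block columns 1 to 8, on the left, hold 64 of the 102 spots.

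Without BC245 and with the adjustment, each applied alone, 17 of the 100 probes were chosen again both times, and 8 of these were among the 10 with the highest r. Besides the 8, which were AW464973, BF039701, BF040079, BF041874, BF046631, AW465560, CN434617 and CN432794, the 17 were BF040309, CR552523, AW466048, CN435471, CN433039, CN433205, BM362313, CR553189 and BF046135. They were picked after their values were seen and carry no test.

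**Figure D4:**
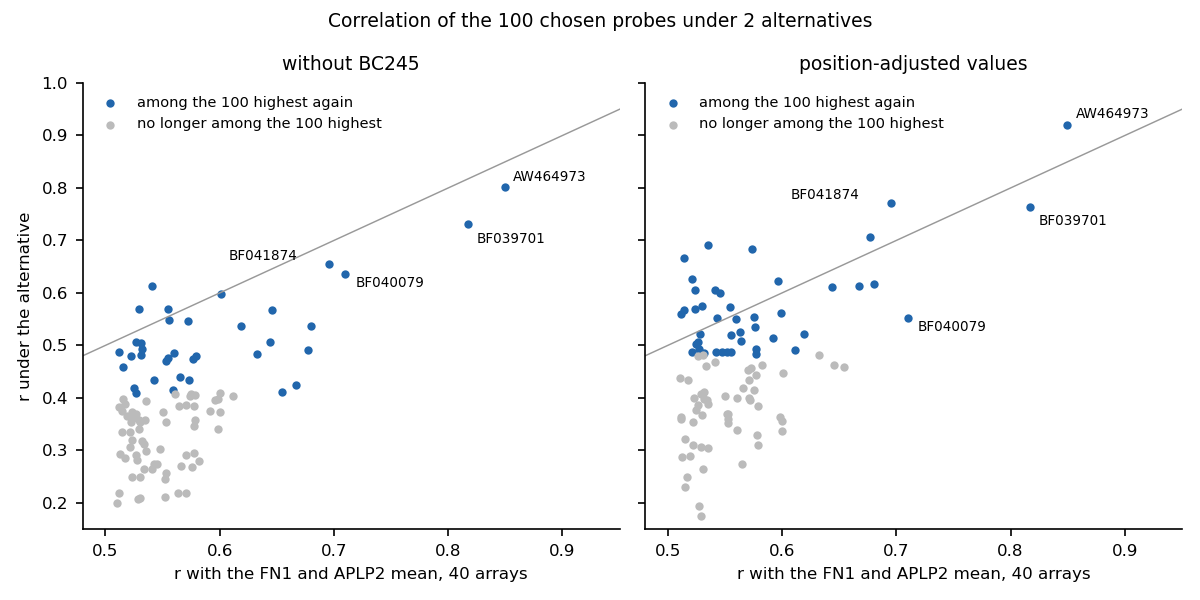
Correlation (r) of the 100 chosen probes with the FN1 and APLP2 mean over 40 arrays (horizontal axis) against r without BC245 (left) or with position-adjusted values (right). The line marks equal values and blue points the probes chosen again, 36 on the left and 44 on the right. AW464973 stays highest in both, at 0.80 and 0.92.

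The other 14 genes with QPCR primers were not members. Their r with the FN1 and APLP2 mean was between -0.28 (DFFA, an inhibitor of the nuclease that cuts DNA in apoptosis) and 0.40 (LHFPL2), and was above 0 for 8 of them. LHFPL2 had 0.27 without BC245, and its spot was brighter than water on only 18 of the 40 arrays. DFFA had -0.21 without BC245. PLIN2, the trophoblast gene, had r = 0.09, and 0.02 without BC245. EED, a subunit of the Polycomb complex that methylates histone H3, had 0.31, and 0.12 without BC245. WNT5B, a secreted signalling ligand, had 0.18. By accession, 71 of the 102 probes (69.6%) began with AW or BF, against 67.6% of the array, and 29 (28.4%) with CN, CR or CV, against 22.1%. Only 2 (1.96%) began with BM, against 9.34%.

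No relation of the FN1 and APLP2 mean to 4 measures of array quality passed the test. Over the 40 arrays, with group means subtracted, its r was -0.13 with the log2 median signal (Spearman rho -0.16), -0.08 with the median signal over local background (rho -0.12), 0.13 with the share of spots above water (rho 0.02) and -0.16 with the SD of the centred signal (rho -0.09). For these 4 relations the permutation test gave adjusted p = 0.576, 0.619, 0.576 and 0.576 for r, and 0.761, 0.761, 0.903 and 0.761 for rho, with unadjusted p between 0.333 and 0.619 for r and between 0.334 and 0.903 for rho. Without the 2 arrays farthest from the median of the measure, r was -0.19, -0.15, 0.08 and -0.20. Within sessions 1, 2 and 3 it was -0.21, 0.13 and -0.51 for the median signal, -0.08, 0.18 and -0.62 for the signal over background, 0.02, 0.53 and 0.39 for the share above water and 0.24, -0.24 and -0.45 for the SD.

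The 4 groups were compared in 6 pairs, to ask whether the endoderm transcripts and the probes varying with them differed between IVP and SCNT or between donor lines. No member passed an adjusted p under 0.10 in any pair (limma, Benjamini-Hochberg over all 10184 probes). The share of all probes called was 0.0% for each SCNT group against IVP, 0.0% for SCNT Med against SCNT Low, 0.0982% for SCNT High against SCNT Low and 0.00982% for SCNT High against SCNT Med. The smallest adjusted p of a member was 0.28, for SCNT High against IVP. No difference between groups given below passed this test, and the unadjusted counts describe probes that vary together and are not independent of each other. The study used another program, and its pairs also included conceptuses from artificial insemination. It chose FN1 and APLP2 from its differing genes for QPCR, and described FN1 levels as differing in both array and QPCR data. The QPCR values were not looked at here.

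SCNT Med and SCNT Low were the pair farthest apart for the defining genes. FN1 was 2.48-fold higher in SCNT Med, a difference of 1.31 (log2, SE 0.32, 95% interval 0.65 to 1.98, adjusted p = 0.901, unadjusted p = 0.000448). APLP2 was 1.71-fold higher, a difference of 0.77 (SE 0.20, interval 0.36 to 1.18, adjusted p = 0.942), and 9 arrays out of 10 in SCNT Med exceeded the SCNT Low mean. These were the 2 smallest p-values of the members in this pair. AW464973 differed by 1.11 (interval 0.27 to 1.94), BF041874 by 1.02 (0.25 to 1.79), AW465560 by 1.08 (0.47 to 1.68) and BF046631 by 0.66 (0.25 to 1.06). Not all probes of the set moved so, since CN434617, with a mean of 3.89 in SCNT Med and 3.90 in SCNT Low, differed by -0.01 (-0.57 to 0.55). At an unadjusted p under 0.05, 20 members (19.6%) were higher in SCNT Med and 3 lower, where 2.43% of all probes were higher and 1.86% lower. The median difference of the members was 0.21, against -0.01 for all probes.

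The difference between SCNT Med and SCNT Low was present in both sessions that held these groups. The mean FN1 level was 2.75 in 7 SCNT Med and 1.44 in 3 SCNT Low arrays of session 1, and 2.56 in 3 and 1.33 in 5 arrays of session 2. For APLP2 the means were 0.41 and -0.09 in session 1, and 0.66 and -0.49 in session 2. With position-adjusted values the differences were 1.22 for FN1 and 0.73 for APLP2. With the local background corrected by normexp they were smaller, at 1.07 and 0.56. For AW464973 the session means were 2.52 and 1.503, and 1.90 and 0.91.

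SCNT Low against IVP showed the defining genes at lower means in SCNT Low. FN1 differed by -0.63 (log2, SE 0.20, 95% interval -1.04 to -0.22, limma adjusted p = 1.00, unadjusted p = 0.00426), and all 10 SCNT Low arrays were below the IVP mean. APLP2 differed by -0.31 (interval -0.62 to -0.005) with 9 of 10 arrays below it. The members with the smallest p were CN433940, with levels between 5.72 and 7.67 in IVP and between 3.29 and 6.76 in SCNT Low (difference -1.50, interval -2.24 to -0.76, adjusted p = 0.84), and BF041874 (-0.73, interval -1.13 to -0.32). CN433940 was not chosen again without BC245, nor with the adjustment for place, whereas BF041874 was chosen again both times. At an unadjusted p under 0.05, 19 members (18.6%) were lower and 2 higher, where 2.11% of all probes were lower and 1.27% higher.

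SCNT Med against IVP gave differences of the opposite sign for the defining pair. FN1 differed by 0.69 (log2, SE 0.33, 95% interval 0.002 to 1.37) and APLP2 by 0.46 (SE 0.20, interval 0.05 to 0.87), both with an adjusted p of 1.00, and 5 of 10 SCNT Med arrays were above every IVP array for each gene. FN1 differed by 0.48 when BC158 was left out. The members with the smallest p were CN433626, lower in SCNT Med by -0.39 (interval -0.67 to -0.10), and AW466003, higher by 0.43 (0.10 to 0.77). Both were chosen again with the adjustment for place but not without BC245. At an unadjusted p under 0.05, 9 members (8.82%) were higher and 4 lower, where 1.55% of all probes were higher and 1.74% lower.

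The pairs with SCNT High depended on BC245. Against IVP, FN1 differed by -0.56 (log2, SE 0.35, 95% interval -1.28 to 0.15) and by -0.26 without BC245, and APLP2 by 0.02 (interval -0.46 to 0.49) and by 0.20 without it. Against SCNT Med, FN1 differed by -1.25 (interval -2.13 to -0.36, adjusted p = 0.659), with all 10 SCNT High arrays below the SCNT Med mean, and by -0.94 without BC245. APLP2 differed there by -0.44 (interval -0.99 to 0.11), and by -0.26 without it. Against SCNT Low, FN1 differed by 0.07 (interval -0.63 to 0.77) and by 0.37 without BC245, and APLP2 by 0.33 (interval -0.15 to 0.81) and by 0.51 without it. These intervals hold differences of more than 1.5-fold in either direction for FN1 against SCNT Low, and an equal level was not shown.

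In the same pairs the members with the smallest p were not the defining ones, apart from FN1 against SCNT Med. BF043774 was between -1.29 and -0.40 in SCNT High and between -1.69 and -0.91 in IVP, with 7 of 10 SCNT High arrays above every IVP array (difference 0.43, interval 0.15 to 0.70, adjusted p = 0.28). AW465849 was lower in SCNT High than in IVP by -0.52 (interval -0.92 to -0.13) and than in SCNT Med by -0.77 (interval -1.20 to -0.35, adjusted p = 0.55), where 7 of 10 SCNT High arrays were below every SCNT Med array. BF045882 and CR553189 were both higher in SCNT High than in SCNT Low by 0.54 (intervals 0.17 to 0.90 and 0.17 to 0.91, adjusted p = 0.68). CR553189 was chosen again both without BC245 and with the adjustment for place. BF043774 and BF045882 were chosen again only without BC245, and AW465849 only with the adjustment.

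The counts at an unadjusted p under 0.05 also depended on BC245, and for IVP the side with more members changed. Against IVP, 5 members were higher and 13 lower in SCNT High (6.06% and 4.93% of all probes), and without BC245, 15 were higher and 9 lower (5.77% and 5.06% of all probes). Against SCNT Med, 3 were higher and 12 lower (3.12% and 3.62% of all probes), and 6 and 8 without it (3.07% and 3.13%). Against SCNT Low, 8 were higher and 1 lower (2.61% and 1.39% of all probes), and 18 and 0 without it (2.83% and 1.51%). The session moved these counts too. Without session 3, which held 4 SCNT High arrays, 0 were higher and 3 lower against IVP (2.98% and 2.84% of all probes). They were 0 and 10 against SCNT Med (1.62% and 2.32%) and 3 and 0 against SCNT Low (1.24% and 0.69%). With the session as a block, the counts in the same order were 2 and 2 (4.59% and 3.83%), 0 and 8 (2.18% and 2.35%) and 5 and 3 (2.77% and 1.96%). The median difference of the members was -0.16, -0.18 and 0.03 in these pairs with BC245, and 0.05, 0.02 and 0.22 without it. The pairs share groups, so they are not independent of each other.

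**Figure D5:**
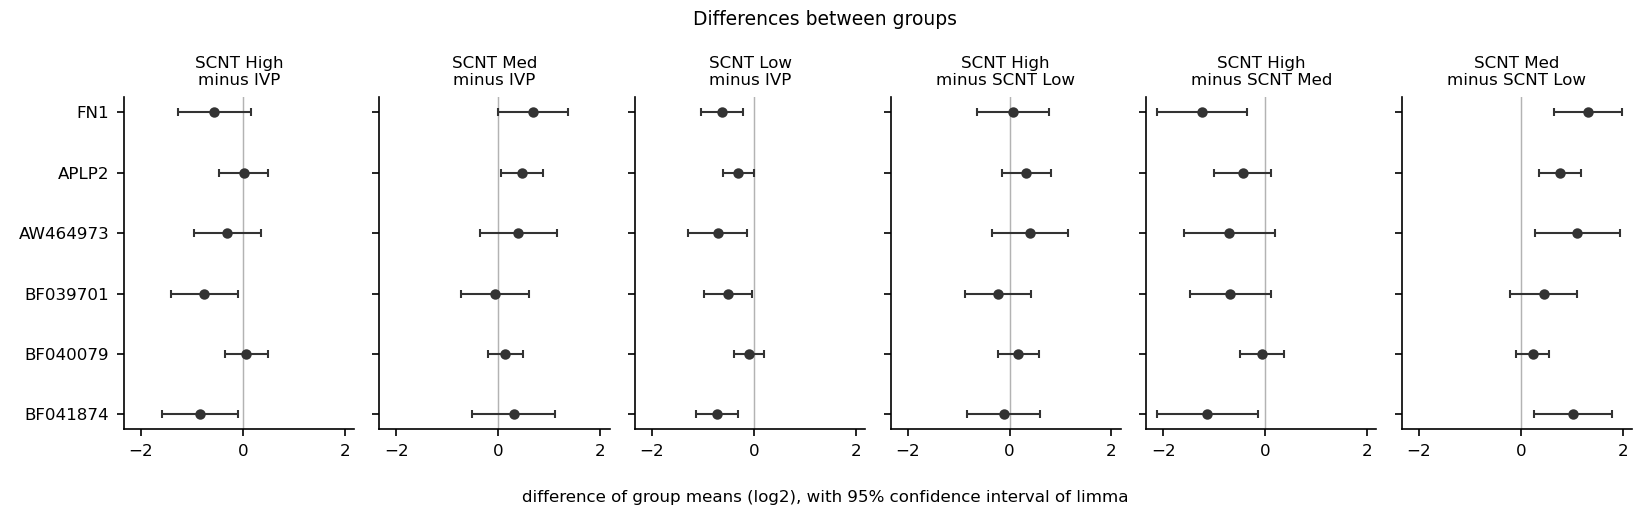
Difference of the group means (log2, horizontal axis) with the 95% confidence interval of limma, for FN1, APLP2 and the 4 probes with the highest r, in the 6 pairs of groups (10 arrays each). FN1 differs by 1.31 between SCNT Med and SCNT Low, with an interval of 0.65 to 1.98, and no adjusted p in the plot is under 0.10.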

How the data were processed

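Amplified RNA of each conceptus was labelled with radioactive phosphorus and hybridised to a nylon cDNA array. The authors deposited intensities per spot, as the mean brightness of the pixels of the spot and around it (Imagene 5.5, per the file headers), without subtraction or normalization. The deposited shape regularity score and the marks of poor spots served only to check spots. The authors also deposited processed log2 values, whose differences between arrays equal those computed here (slope 1, Pearson r 1).

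The log2 intensity was centred on each array's mean over 10184 cDNA probes, without 30 controls and 154 unnamed spots. The pairs of groups were fitted with limma 3.58.1 in R 4.3.3 on the 20 arrays of the pair. The SMVar program of the methods was not available. Correlations were permuted 100000 times, two-sided (Python 3.11.15, numpy 2.4.6, scipy 1.17.1), and p-values adjusted by Benjamini-Hochberg. Both the choice of probes and the fits were run on simulated normal data with a planted pattern. Those data held no outlying array such as BC245 and no pattern of place on the membrane. They therefore cannot show how the choice or the fits behave with either.

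The members, lists and tests were chosen with earlier results of these data known. Named probes were FN1, APLP2, the 10 others with the highest r, the 2 with the smallest p where a pair called none, and those at the limit of r. Alternatives were normexp (offset 50), quantile normalization, median centring, the processed table, leaving out session 3, 3 unusual arrays (BC30, BC250, BC245) or the dimmest 25% of probes, 1 model for 4 groups, array weights, a session block, thresholds of 0.05 and 0.20, rank correlation, and other ways to subtract means. Leaving out BC245, BC158 or any single array, and the adjustment for place, were added after seeing the data. AI arrays were not analysed here. The number of arrays limits the precision.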

Additional observations from a re-analysis of the deposited data

Results flagged for a closer look

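Among 80 sets of 10 arrays (19 named probes and the mean of the 102 probes, in 4 groups), 14 held a single array far from the rest by Dixon's ratio, the gap to the nearest array over the whole range compared with its 95% limit for 10 arrays. Chance flags about 1 in 20 sets of values, but this rate does not apply to probes chosen to follow a mean to which BC245 contributed 33.9% of the squared deviations, so most of its flags restate the choice. BC245 was the array apart in 10 sets of SCNT High. FN1 was among these sets, only just above the limit, and APLP2 was not. The ratio of BC245 was 0.467 for FN1 (level -1.29, next array 0.42), 0.52 for AW464973 (-0.80, next 0.98), 0.552 for BF039701 (-0.63, next 1.34), 0.736 for AW465560 (-1.91, next 0.50) and 0.718 for CN434617 (0.87, next 3.54). It was 0.697 for CN432728 (0.85, next 4.32), 0.499 for CN432794 (-0.96, next 0.12), 0.52 for CN433626 (0.46, next 1.45), 0.569 for CN433940 (1.53, next 4.73) and 0.602 for the mean of the 102 probes (-0.84, next 0.51).

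In SCNT Med, BC122 was low for CN432728 (ratio 0.654, level 2.73, next 4.92) and CN433940 (0.638, level 2.09, next 5.22). CN434617 was low on BF190 in IVP (0.554, level 2.71, next 3.68) and on BC256 in SCNT Low (0.601, level 2.58, next 3.73). What set these arrays apart was not tested.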

How the results depend on the processing

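No member was called in the 6 pairs under any alternative run except array weights. In SCNT High against IVP the weights called 1 member (BF043774), among 180 of all 10184 probes. In SCNT High against SCNT Low they called 1 member (BF039046), among 43 of all probes. Position-adjusted values called 71 of all probes in SCNT High against IVP and 28 in SCNT High against SCNT Low. They called 3 in SCNT High against SCNT Med and 6 in SCNT Med against SCNT Low, and none of these probes was a member. Leaving out any single array called 0 members. The signs of FN1 and APLP2 held under the alternatives, except for APLP2 in SCNT High against IVP, at -0.017 with median centring, -0.129 without the third session, -0.114 with the session as a block and -0.051 with position-adjusted values. Over single arrays left out, this difference ran from -0.074 to 0.198, and that of FN1 in SCNT High against SCNT Low from -0.039 to 0.370. Adjusted p-values of FN1 ranged from 0.257 to 1.00 and those of APLP2 from 0.234 to 1.00 over all settings, none called.

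Membership moved most. Of the 100 probes, 58 were chosen again with normexp, 44 with position-adjusted values, 44 with rank correlation, 38 without BC30, BC250 and BC245, 36 without BC245, 31 without BC245 and BC158, and 22 with position-adjusted values without BC245. Over single arrays left out, 36 to 100 were chosen again. The other alternatives kept 68 to 100. The cause of the change was not tested. No paired analysis was possible, because the labels give neither the recipient nor the oocyte batch and tie no conceptus to one of another group.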

Other observations

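The probes that varied most against FN1 and APLP2 within groups were bcaz0009a.i.15 (r = -0.70), CR552240 (-0.69) and CR552999 (-0.64). Without BC245 these values were -0.54, -0.47 and -0.46, and with position-adjusted values -0.64, -0.71 and -0.52. Their genes are not named here, and the values chose the probes, so no test was made.

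All 10 GAPDH spots, which measure a glycolytic enzyme, had a negative r with the FN1 and APLP2 mean, between -0.46 and -0.21 with a median of -0.33. The 10 actin spots had r between -0.06 and 0.33, with a median of 0.12. Without BC245 the GAPDH values were between -0.36 and -0.017 with a median of -0.15, and the actin values between -0.10 and 0.13 with a median of 0.01. With position-adjusted values the GAPDH spots had r between -0.54 and -0.32, and the actin spots between -0.23 and 0.20. The spots of 1 gene are not replicates of a conceptus, and the difference was not tested.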
